A study of Homo sapiens with 6 samples.

Results

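The 48 genes described here make up the core machinery of DNA replication: the complexes that license origins, start them and run the replication fork. They were chosen by name, and every probe set whose platform annotation gave a single gene symbol from this set was taken. All 48 genes were measured, by 87 probe sets, among 19775 genes with such a probe set. No filter on low values was applied, so none of the 48 was lost.

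The cells were K562, an established human line of erythroleukemia cells that came from a chronic myeloid leukemia. They carried a pTRE-ERG construct, from which doxycycline (DOX) switches on ERG, an ETS family transcription factor. Each of 3 independent stably transfected clones, CL4, CL9 and CL46, was hybridized once after 8 days with DOX (1 µg/ml; labelled ERG-induced) and once without DOX (labelled non-induced), which gave 6 arrays. The length of DOX treatment is that of the labels and array methods, and a figure legend of the study gives a shorter one. Because all ERG-induced cultures and no others received DOX, effects of ERG and of DOX cannot be told apart. ERG itself had log2 ratios of 0.15, -0.93 and -0.71 with DOX, in the order CL4, CL9, CL46, against 1.5, -0.13 and -0.57 without. Its difference of -0.76 (SE 0.63, limma adjusted p = 0.671) did not run the way of the labels. Whether its probe sets cover the introduced sequence could not be told, so their values test no label, and groups keep the names the labels give.

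Origins of replication are licensed before S phase, when the origin recognition complex (ORC), CDC6 and CDT1 load the ring-shaped MCM2 to MCM7 helicase onto DNA. At the start of S phase the CDC7 kinase with its activator DBF4 phosphorylates the loaded helicase, and CDC45, the GINS complex and MCM10 turn it into a moving fork. DNA polymerase alpha with primase then lays primers, the clamp loader RFC places the sliding clamp PCNA, polymerases epsilon and delta extend the strands, and FEN1, DNA2 and LIG1 join the fragments of the lagging strand. Many of these genes are known targets of the E2F transcription factors in cycling cells.

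The deposited values are ratios, each probe set relative to its median over the 6 arrays, so they hold no brightness, and levels of different genes cannot be compared. Values below are log2 ratios averaged over the probe sets of a gene, and differences are labelled ERG-induced minus labelled non-induced. Each is given with its standard error (SE) from limma, over 3 arrays against 3, where the clones are the replicates. A gene was called lower or higher (fell or rose) at a fold of 2 or more with an unadjusted p under 0.05, the thresholds of the study. No multiple-test correction enters such a call. With Benjamini-Hochberg adjustment in limma over the whole table, an adjusted p under 0.05 was reached by 0 of the 48 and 0 of all genes. At an unadjusted p under 0.05 and any fold, 5 of the 48 were lower and 1 was higher, where 8.86% of all genes (1753) were lower and 4.0% (791) higher. At a fold of 1.5 or more the counts were again 5 and 1, against 8.85% and 3.96% of all genes, and at a fold of 2 or more with the same sign in every clone 5 and 0, against 8.97% and 5.67%.

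Of the 48 replication genes, 5 fell and 0 rose. CDC7, the kinase that fires licensed origins, POLA1, the catalytic subunit of DNA polymerase alpha, DNA2, a nuclease and helicase of lagging strand processing, MCM10, a factor of helicase activation, and RFC3, a subunit of the clamp loader, were between 2.08-fold and 3.21-fold lower. Over all genes tested, 6.32% were called lower and 3.12% higher, against 10.4% of the replication genes called lower. That share rests on 5 genes and is not read as a property of the set. The median difference of the 48 genes was -0.20, against -0.03 over all genes, which leaves -0.17 between them. When each array was centred on its median, the median of all genes moved by more than 0.1, to 0.08, and the calls over all genes were 5.05% lower and 3.79% higher. After quantile normalization they were 4.67% lower and 4.29% higher. The replication genes were then lower in 3 cases (CDC7, DNA2 and POLA1) and 2 cases (CDC7 and POLA1), and their median relative to all genes was -0.17 and -0.20. With a clone left out that gap was -0.11 without CL4, -0.17 without CL9 and -0.01 without CL46, so it rested largely on CL46.

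At any p, 10.4% of the 48 had a difference of -1 or below and 0% of 1 or above, against 12.5% and 9.34% of all genes. Their median SE was 0.26, against 0.45 over all genes, and the median range between the 3 clones without DOX was 0.39, against 0.88. Related lists had similar values, with a median SE of 0.30 and a median range of 0.40 for other replication factors and 0.30 and 0.36 for mitotic genes, so a narrow spread is not particular to the 48 genes. Of the 48, 37 differed by less than 0.5 in either direction, and for 25 the 95% confidence interval lay within a log2 difference of 1 either way, that is, inside a 2-fold change. Among all 48, 20 were lower in each of the 3 clones and 6 were higher in each, where 22.4% and 17.8% of all genes were. The arrays of both groups did not overlap for 13 lower and 3 higher replication genes, where 13.6% and 7.98% of all genes did not.

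**Figure D1:**
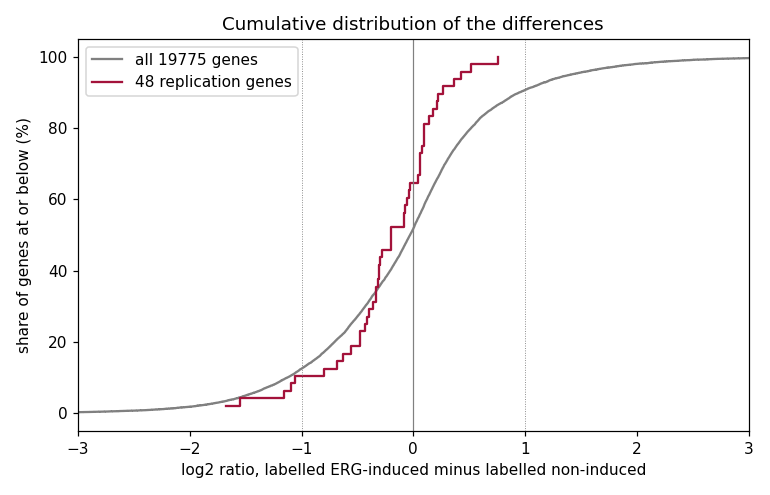
Cumulative distribution of the log2 difference (x axis, labelled ERG-induced minus labelled non-induced; dotted lines at a 2-fold change) for all 19775 genes in grey and for the 48 replication genes in red, as the share of genes at or below each value (y axis, %). The red curve is steeper, with 0% of the replication genes at 1 or above and 10.4% at -1 or below.

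POLA1 had the largest change. The polymerase that it encodes, with primase, starts every new DNA strand. In the order CL4, CL9, CL46, its log2 ratios were 0.46, 0.44 and 0.93 without DOX against -0.63, -1.30 and -1.30 with it. All 3 ratios with DOX lay below all 3 without it, and the smallest drop was in CL4. The difference was -1.68 (SE 0.31, adjusted p = 0.192), a 3.21-fold fall measured by 1 probe set. The other subunits of the same complex were not called. The accessory subunit POLA2 differed by 0.06 (95% interval -0.58 to 0.69), and the primase subunits PRIM1, the catalytic one, and PRIM2 differed by -0.30 (-0.90 to 0.30) and 0.10 (-0.50 to 0.70). In each clone, POLA1 differed by more than any of these, at -1.09, -1.74 and -2.23.

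CDC7 was 2.93-fold lower. Its log2 ratio was 0.39, 0.56 and 0.89 without DOX in CL4, CL9 and CL46 and -0.54, -1.57 and -0.71 with it. The groups did not overlap, and CL9 stood lowest with DOX. The difference was -1.55 (SE 0.36, adjusted p = 0.227), measured by 1 probe set. DBF4, which activates CDC7, had ratios of 0.19, 0.15 and 0.55 without DOX and -0.17, -0.70 and -0.26 with it. The groups did not overlap here either, but the difference of -0.68 (SE 0.28, unadjusted p = 0.0508 in limma, adjusted p = 0.391) was short of both thresholds.

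DNA2 had log2 ratios of 0.30, 0.44 and 0.47 without DOX and -0.80, -1.08 and -0.38 with it, in CL4, CL9 and CL46. The values without DOX lay close together, and those with DOX were all lower. It was 2.23-fold lower (difference -1.16, SE 0.28, adjusted p = 0.233; 1 probe set), and its call was lost without CL9 (-0.98) and after quantile normalization (-0.99). FEN1, the flap endonuclease that acts beside it, differed by 0.08 (95% interval -0.53 to 0.69), and the ligase LIG1 by -0.03 (-0.72 to 0.66). Neither was called.

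MCM10 had log2 ratios of 0.17, 0.59 and 0.84 without DOX and -0.40, -0.99 and -0.29 with it. The groups did not overlap, and the clone differences ran from -0.57 in CL4 to -1.59 in CL9. It was 2.13-fold lower (difference -1.09, SE 0.32, adjusted p = 0.289). Of its 3 probe sets, 2 fell (-1.28 and -1.10) and the other gave -0.91. RFC3 had ratios of 0.21, 0.81 and 0.58 without DOX and -0.38, -0.82 and -0.37 with it, again without overlap. It was 2.08-fold lower (difference -1.06, SE 0.29, adjusted p = 0.260), and of its 3 probe sets 2 fell (-1.14 and -1.08) and the other gave -0.95. Both genes stood just past the fold of 2. Without CL9 they gave -0.85 and -0.77 and lost the call, and without CL46 they gave -1.08 and -1.11 and lost it too. With each array centred they were at -0.99 and -0.95, and after quantile normalization at -0.94 and -0.91, short of the fold. CDC7 and POLA1 remained called with each clone left out and under both scalings.

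**Figure D2:**
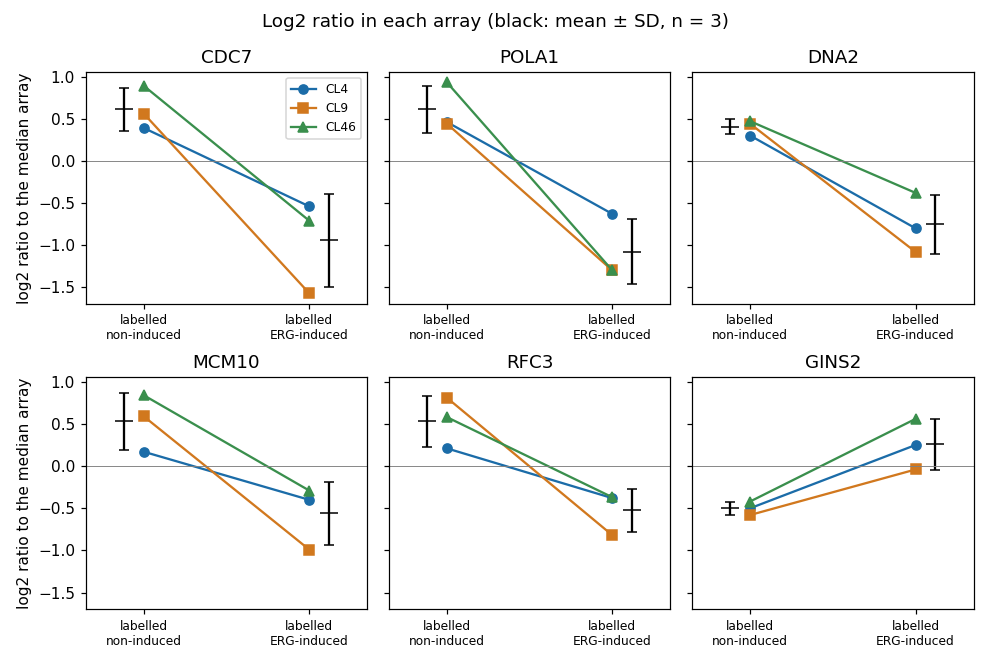
Log2 ratio to the median array (y axis) in each of the 6 arrays for the 5 genes called lower and for GINS2, with a line for each clone from the array labelled non-induced to that labelled ERG-induced and the mean ± SD of 3 arrays in black. For CDC7, POLA1, DNA2, MCM10 and RFC3 every array labelled ERG-induced lies below every other array, and for GINS2 it lies above.

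The promoters of these genes are shown because E2F sites are the best known shared feature of replication genes. RefSeq promoter windows (GRCh38.p14, 250 bases before to 50 after a start site) were found for 41 of the 48 genes, and none was found for DNA2. The E2F letters searched, on both strands, were TTTCCCGC, TTTGGCGC, TTTCGCGC and TTTGCCGC, which can overlap each other. They were in a window of 22 of the 41 genes (53.7%), against 802 of 15343 other genes on the arrays (5.23%) and 3.3% of all 35116 windows in the table. Below are the 150 bases before the start site of 4 genes that fell and of GINS2 and PCNA, which were not called, with E2F letters in capitals. RefSeq gives several start sites for 9 of the genes, CDC7 and PCNA among them, and the stretch with the match is shown. The stretches are chr1:91500962-91501111 (CDC7, plus strand), chr13:33817999-33818148 (RFC3, plus), chrX:24693768-24693917 (POLA1, plus), chr10:13161408-13161557 (MCM10, plus), chr16:85688955-85689104 (GINS2, minus) and chr20:5126623-5126772 (PCNA, minus).
CDC7: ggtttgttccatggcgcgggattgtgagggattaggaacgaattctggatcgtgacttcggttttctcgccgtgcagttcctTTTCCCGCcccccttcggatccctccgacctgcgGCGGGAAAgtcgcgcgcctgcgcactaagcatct
RFC3: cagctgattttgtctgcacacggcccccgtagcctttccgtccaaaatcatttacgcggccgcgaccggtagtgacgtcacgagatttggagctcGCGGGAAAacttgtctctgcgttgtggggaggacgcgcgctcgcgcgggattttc
POLA1: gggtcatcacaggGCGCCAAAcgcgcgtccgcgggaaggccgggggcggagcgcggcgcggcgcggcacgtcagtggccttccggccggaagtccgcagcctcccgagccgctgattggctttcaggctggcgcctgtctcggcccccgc
MCM10: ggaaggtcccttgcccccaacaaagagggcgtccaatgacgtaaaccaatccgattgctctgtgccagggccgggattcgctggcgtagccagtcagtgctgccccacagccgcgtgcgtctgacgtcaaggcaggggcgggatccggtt
GINS2: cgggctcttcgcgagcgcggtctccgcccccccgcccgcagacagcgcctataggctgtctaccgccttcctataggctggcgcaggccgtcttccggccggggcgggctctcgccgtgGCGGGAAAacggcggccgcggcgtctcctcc
PCNA: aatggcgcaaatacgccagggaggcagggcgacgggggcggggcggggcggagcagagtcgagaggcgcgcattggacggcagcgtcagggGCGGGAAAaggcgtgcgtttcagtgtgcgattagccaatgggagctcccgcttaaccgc
CDC7 has a pair of these matches, facing each other, which start at -68 and -34 relative to the start site. RFC3, GINS2 and PCNA have 1 each, at -55, -31 and -59, and POLA1 has 1 at -137. MCM10 has no such letters in its window. Of the 22 genes with a match 3 fell, and of the 19 without it MCM10 fell. The median difference was -0.14 over the 22 and -0.28 over the 19, a contrast that was not tested. The letters CCAAT, on either strand, were in windows of 25 of the 41 genes (61.0%) and of 41.7% of the other genes. The letters CCGGAAGT, which hold the core that ETS factors such as ERG bind, were in windows of GINS3, POLA1 and RFC4 (7.32%) and of 7.03% of the other genes. These matches describe the letters in the windows only, and binding was not measured.

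The MCM2 to MCM7 helicase, the engine of the fork, had 0 of 6 subunits called. Their differences were -0.06 for MCM2, 0.18 for MCM3, 0.21 for MCM4, 0.06 for MCM5, -0.36 for MCM6 and -0.04 for MCM7. For these genes the 95% intervals reached at most -0.92 (MCM6) and 1.04 (MCM4), so that a fall by a fold of 2 lay outside the interval of each subunit. The signs of MCM2 and MCM7 turned under either array scaling. MCM6 was the subunit whose arrays did not overlap, with 0.00, 0.08 and 0.30 without DOX and -0.25, -0.19 and -0.25 with it in CL4, CL9 and CL46. Of the 5 probe sets of MCM4, 4 gave 0.14 to 0.49, and the other was erratic, with -3.47, 2.12 and 1.22 in the clones (SE 1.37).

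Of the 6 ORC subunits, which mark origins, 0 were called. ORC1, the largest subunit and one whose amount follows the cell cycle, differed by 0.43 (SE 0.25), with 0.41, 0.44 and 0.44 in the clones and every array with DOX above those without. The other subunits lay below 0, at -0.43 for ORC2, -0.33 for ORC3, -0.08 for ORC4, -0.56 for ORC5 and -0.31 for ORC6, and the sign of ORC4 turned under either array scaling. ORC5 came nearest to a call among them, with 3 probe sets at -0.66, -0.56 and -0.47, non-overlapping groups and an unadjusted p of 0.0596 in limma (adjusted p = 0.412). Of the factors that load the helicase with ORC, CDC6 differed by -0.07 and CDT1 by 0.52 (SE 0.38). Geminin (GMNN), which binds CDT1 and blocks a new round of licensing, differed by -0.63 (SE 0.27, adjusted p = 0.409). Its log2 ratios were 0.08, 0.31 and 0.23 without DOX and -0.09, -0.70 and -0.46 with it, with no overlap. The differences of CDT1 and of its inhibitor lay on opposite sides of 0 in each clone, and neither passed the thresholds.

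The helicase cofactors CDC45 and GINS had 0 of 5 members called in the mean over probe sets. GINS2 had the highest difference of the 48 genes, 0.76 (SE 0.26, unadjusted p = 0.0281 in limma, adjusted p = 0.330), a 1.69-fold difference that was short of 2. Its log2 ratios were -0.50, -0.58 and -0.42 without DOX and 0.25, -0.04 and 0.56 with it, without overlap. Its 3 probe sets did not give the same picture. The first rose (1.27, SE 0.45), another gave 0.95 (SE 0.52) and the third 0.05 (SE 0.32, with 0.21, -0.13 and 0.07 in the clones). Without the third, whose name marks probes shared between transcripts, GINS2 was called higher (1.11). The other subunits gave 0.22 for GINS1, -0.08 for GINS3 and -0.33 for GINS4, and CDC45 gave -0.20. GINS3 changed sign under either array scaling.

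At the clamp, PCNA differed by -0.20 (95% interval -0.80 to 0.40), with -0.09, -0.22 and -0.30 in CL4, CL9 and CL46. The subunits of its loader were unequal. RFC3 fell, RFC4 differed by -0.48 (SE 0.25) with -0.48, -0.68 and -0.29 in the clones, and RFC2 and RFC5 gave 0.10 and 0.27. RFC1, the large subunit, differed by -0.31 (SE 0.41), with -1.28, -0.03 and 0.38 in the clones. Of its 3 probe sets, 2 fell (-1.25 and -1.22, below 0 in each clone). The remaining probe set was at 1.55 (SE 1.31), from -2.55 in CL4 to 3.18 and 4.04 in CL9 and CL46. Taken by the median over probe sets, RFC1 was called lower (-1.13), while RFC3 lost its call (-0.97). By the probe set at 1.55 alone, the one left when _x_at and _s_at probe sets were set aside, RFC1 was not called.

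The replicative polymerases had 0 of 5 members called. POLE, the catalytic subunit of polymerase epsilon, differed by 0.14 and its accessory subunit POLE2 by -0.41, the latter without overlap of the groups. POLD1, the catalytic subunit of polymerase delta, differed by 0.04 and the accessory subunits POLD2 and POLD3 by 0.10 and -0.40. POLD3 had the largest SE of all 48 genes (0.50), with -0.92 in CL4 against -0.23 and -0.06 in the others. Of its 2 probe sets, 1 gave -0.55 (SE 0.86), with -1.62 in CL4. The other gave -0.25 (SE 0.29), with -0.22, -0.37 and -0.17 in CL4, CL9 and CL46. The RPA complex, which coats single-stranded DNA, gave -0.32 for RPA1, 0.36 for RPA2 and 0.06 for RPA3, and 0 of 3 were called. RPA2 was higher with DOX in each clone, at 0.44, 0.36 and 0.27, with no overlap of the groups. For RPA1, 2 probe sets gave 0.21 and 0.23, and the other gave -3.89 in CL46 against -0.41 and 0.09 in CL4 and CL9.

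The fork protection genes had 0 of 3 called. CLSPN, which encodes claspin, the mediator between the ATR kinase and CHEK1, differed by -0.80 (SE 0.36, unadjusted p = 0.0671 in limma, adjusted p = 0.427), with -0.76, -0.83 and -0.80 in the clones. Its log2 ratios were 0.39, 0.23 and 1.02 without DOX and -0.37, -0.60 and 0.22 with it, so that the highest array with DOX lay just below the lowest without. Of its 4 probe sets, 1 fell (-1.15), and the others gave -1.52 (SE 0.89), -0.61 and 0.09. TIPIN and TIMELESS, which form a complex that travels with the fork, differed by -0.48 and -0.28. The 2 probe sets of TIMELESS lay on both sides of 0, at 0.11 and -0.67. MCM8, an MCM relative known for its part in homologous recombination, differed by -0.20 (SE 0.44), a mean of opposed probe sets. The first was lower in every clone and fell (-1.65). The second was at 1.26 (SE 0.79) and reached 3.36 in CL9.

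Counted by probe set, 11 of 87 were lower and 1 was higher, where 8.16% and 2.82% of all 54613 probe sets were. The 11 belonged to 8 genes, the 5 named first and RFC1, MCM8 and CLSPN, so that these 3 carried a lower probe set that the mean over the gene did not show. Of the 24 genes with more than 1 probe set, 10 had probe sets on both sides of 0.

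**Figure D3:**
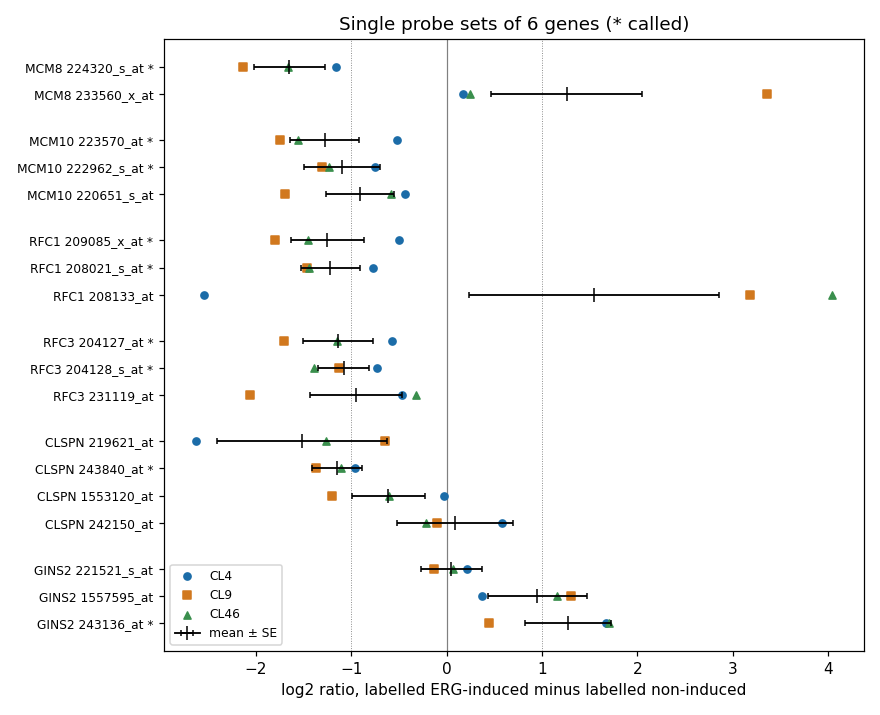
Log2 difference (x axis) of each probe set of 6 genes with a called probe set, with 1 symbol per clone and the mean ± SE of the limma fit in black; dotted lines mark a 2-fold change and stars the called probe sets. The probe sets of MCM10 and RFC3 lie together, while MCM8, RFC1 and GINS2 each have 1 probe set above 1, of which only that of GINS2 was called.

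**Figure D4:**
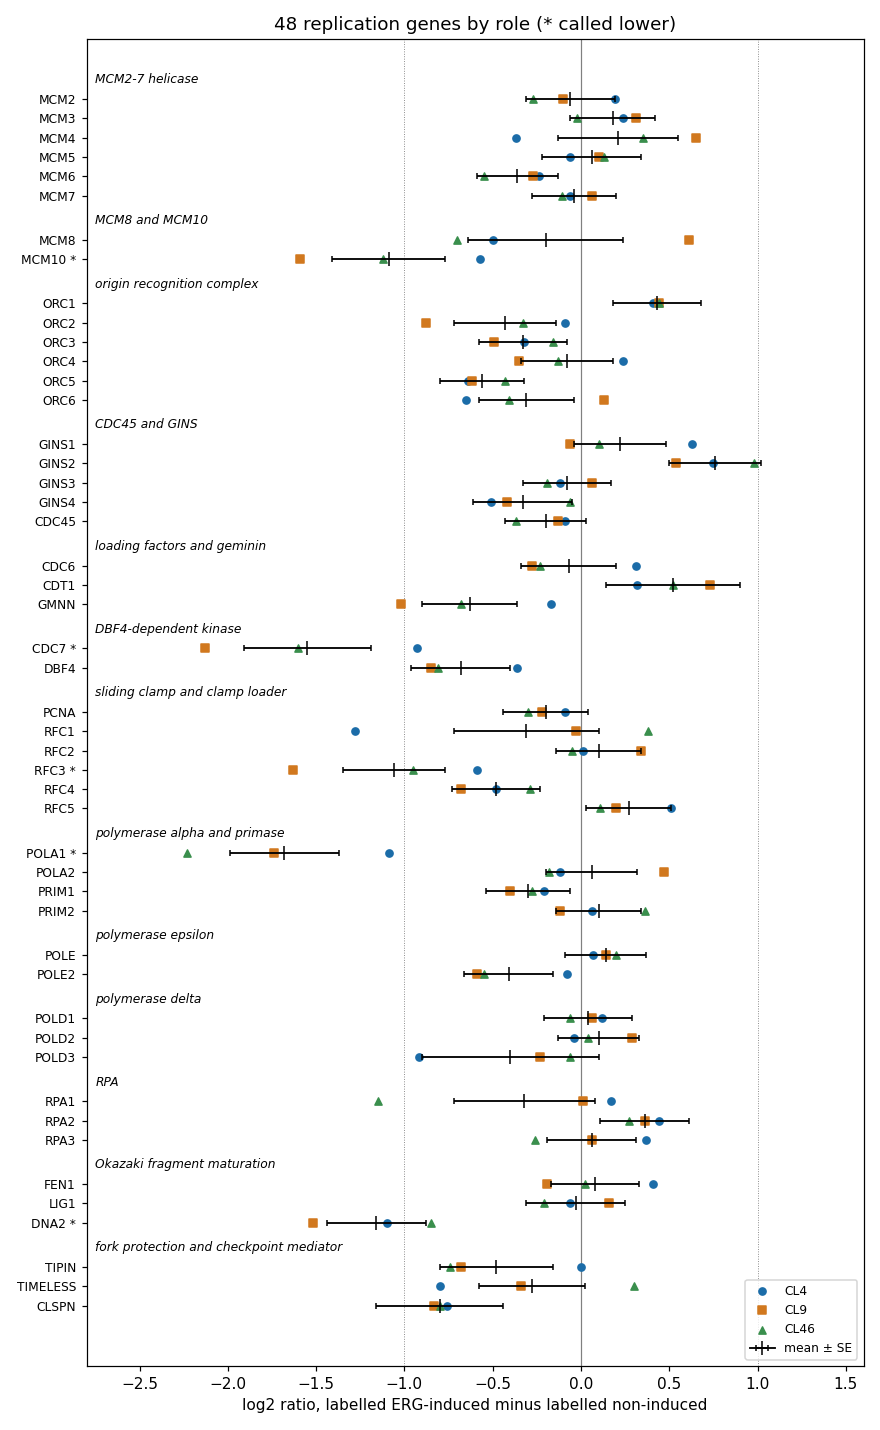
Log2 difference (x axis, arrays with DOX minus arrays without) of all 48 replication genes, grouped by role, with 1 symbol per clone and the mean ± SE of the limma fit in black; stars mark the 5 genes called lower and dotted lines a 2-fold change. The 5 called genes belong to 5 of the 13 role groups, and the 6 helicase subunits MCM2 to MCM7 lie between -0.36 and 0.21.

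The 5 falls lay in 5 of the 13 role groups, 1 gene in each, and no complex fell as a whole. CL4 showed the smallest drop of the 3 clones for POLA1, CDC7, MCM10 and RFC3, and CL46 for DNA2. The array's controls for ribosomal RNA of the small subunit, a sign of RNA quality, were higher with DOX by 1.21 in CL4, 0.59 in CL9 and 0.82 in CL46 (mean 0.87, SD 0.32), while the median of the replication genes was -0.09, -0.12 and -0.20 in the same clones. The part of RNA quality in these differences was not tested.

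Other genes of DNA synthesis were taken from related lists. Beside the counts of these lists and of those below, 6.32% of all genes were called lower and 3.12% higher. Of 34 other replication factors measured, 6 fell and 0 rose, with a median of -0.29. TOPBP1, which activates ATR and helps to load CDC45, was 2.91-fold lower (difference -1.54, SE 0.30, adjusted p = 0.192). ATAD5, which unloads PCNA, was 2.82-fold lower, WDHD1, which ties polymerase alpha to the helicase, 2.36-fold lower, and SUPT16H, a histone chaperone subunit, 4.34-fold lower. SUPT16H gave -0.45 in CL4 against -2.87 in CL9 and -3.04 in CL46. Its call was lost without CL9 and without CL46, and that of WDHD1 without CL46 (-1.03). Without CL46, 2 of the 34 were called lower in place of 6. With the clone as a block 5 were called, and the call lost was that of RIF1, a factor of replication timing named here after its values were seen (difference -1.69, unadjusted p = 0.0526 in limma with the block). RIF1, at -0.25 in CL4, also lost its call without CL9, without CL46, without moderation and without _x_at and _s_at probe sets.

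Of 18 genes of nucleotide supply, 2 fell and 0 rose, with a median of -0.06. These were RRM2B, a small subunit of ribonucleotide reductase, at -1.11 (SE 0.27), and PPAT, the first enzyme of purine synthesis, at -1.02 (SE 0.29), and after quantile normalization 0 were called. RRM2B lost its call without CL4, and PPAT without CL9 and without CL46. Of 19 genes of the E2F, DP and pocket protein families and their partners, 1 fell and 0 rose, with a median of -0.14. It was LIN54, a DNA-binding subunit of the DREAM complex, at -1.46 (SE 0.52), whose call was lost without any one of the clones. Of 10 replication checkpoint genes, 2 fell and 0 rose, with a median of -0.03: the kinase ATR at -2.96 (SE 0.59) and the clamp loader RAD17 at -1.10 (SE 0.39). ATR remained called with each clone left out, while RAD17 lost its call without any one of the clones and under both array scalings.

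Of 20 mitotic genes, 5 fell and 0 rose, with a median of -0.42, and 6 had a difference above 0. MKI67, the proliferation marker, was 4.33-fold lower (difference -2.12, SE 0.45, adjusted p = 0.209), the kinesins KIF11 and CENPE 5.07-fold and 8.86-fold lower, the kinetochore gene CENPF 6.25-fold and NDC80 2.04-fold. NDC80 lost its call without CL4 and under both array scalings. Of 12 megakaryocyte markers measured, 3 rose (SELP, GP1BA and ITGB3) and 0 fell, with median differences of 0.25, 0.14 and 1.51 in CL4, CL9 and CL46. Their median log2 ratio was 0.04 to 0.69 in the arrays labelled ERG-induced and -0.64 to -0.32 in the others. Of the 12, 9 had a difference above 0 and 3 below it, TUBB1 (-0.31), GP6 (-0.11) and FLI1 (-0.06). The clones also disagreed: PPBP and PF4 gave -2.53 and -0.39 in CL9 against 5.46 and 4.03 in CL46. ITGB3 lost its call without CL9 and without CL46. It also lost it by the median over its 7 probe sets (1.11) and without _x_at and _s_at probe sets (0.50). Of 9 erythroid markers, 0 rose and 1 fell, the transferrin receptor TFRC at -1.67 (SE 0.32). Of 10 stromal fibroblast markers, 0 rose and 1 fell, COL1A1 at -1.09 (SE 0.44, unadjusted p = 0.0499 in limma). That call was lost without CL4, without CL9 and under both array scalings. The part of a change in cell state or in the share of cycling cells in the differences of the replication genes was not tested, and in these bulk samples fewer cells with a transcript and less transcript per cell cannot be told apart.

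**Figure D5:**
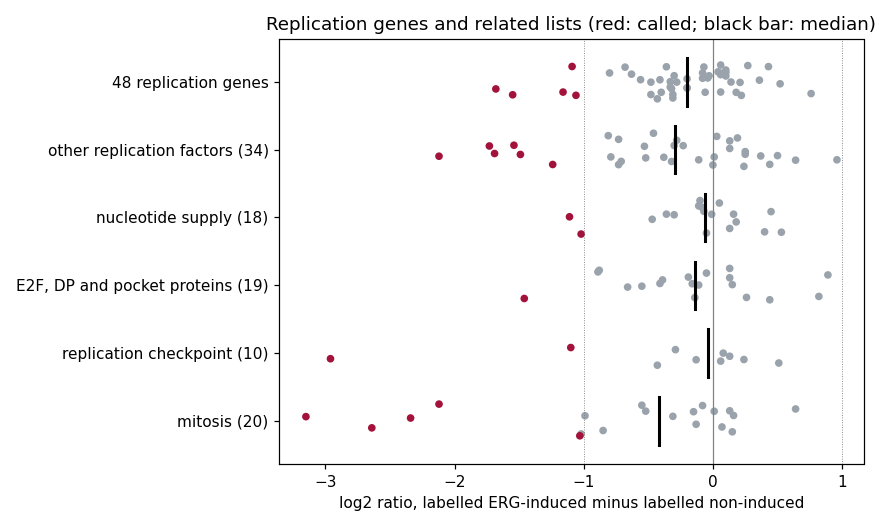
Log2 difference (x axis, arrays with DOX minus arrays without) of the 48 replication genes and of 5 related lists, 1 point per gene with the number of genes measured in brackets; red points were called at the thresholds of the study, black bars are medians and dotted lines mark a 2-fold change. In each list the called genes lie below 0, and the medians run from -0.42 (mitosis) to -0.03 (replication checkpoint).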

How the data were processed

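For each of the clones, RNA with and without DOX was run by the authors on Affymetrix U133 Plus arrays and analysed in GeneSpring. The deposited values are ratios of each probe set to its median over the 6 arrays: of 54675 probe sets, 50737 had a median of 1 (tolerance 1e-05) and 3938 a median below 1, none of the latter for a replication gene. How background was corrected and arrays were scaled is not stated in the sources read, and ratios hold no signal level. The number of arrays limits the precision.

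Log2 values were computed from the deposited ratios. After 62 control probe sets were left out, 54613 were tested. Of these, 41091 had 1 gene symbol in the platform annotation, 1801 several and 11721 none, and those with 1 symbol were averaged into 19775 genes (41037 matched RefSeq by gene ID). limma 3.58.1 (R 4.3.3; lmFit and eBayes without trend, two-sided) was fitted on all genes with Benjamini-Hochberg adjustment. It was tested on simulated data. The fold of 2 and p under 0.05 follow the study, which names no test.

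Groups came from the sample labels. Clones pair the arrays, since both arrays of a number come from the same clone. The correlation of their deviations was 0.036, 0.049 and 0.031, and the clone block was an alternative. The others were array centring, quantile normalization, no moderation, a pseudocount of 0.1, leaving out each clone, median over probe sets, no _x_at or _s_at probe sets, other call thresholds and, chosen after seeing the data, no probe sets of median below 1.

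The replication genes and all lists were chosen with earlier results of these data known. All 48 genes could be named. Of other lists, every called gene was named where 5 or fewer were called, and otherwise the 4 of smallest p. Megakaryocyte markers that were not called were named after their values were seen.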

Additional observations from a re-analysis of the deposited data

How the results depend on the processing

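Of 528 values of single replication genes under 11 alternatives, 481 kept their direction and side of the thresholds. Not all of them could move. Of the replication genes, 24 have 1 probe set, and none has a probe set of median below 1. The clone block and the fit without moderation leave every difference as it is, so they could change only a call. The 5 called genes kept their direction throughout and lost a call 13 times. CDC7 and POLA1 kept it in all 11. Each of them has 1 probe set, so alternatives that choose or average probe sets could not change its difference. With the clone as a replicate block, which uses the pairing, the same 5 genes were called, other replication factors called lower numbered 5 in place of 6 (RIF1), and no other call among the genes of the lists changed. The genes called lower numbered 3 with arrays centred, 2 after quantile normalization, 3 with the pseudocount and 2 to 5 with a clone left out, and 1 (GINS2) was called higher without _x_at and _s_at probe sets, at a fold of 1.5 and at any fold. Probe sets called lower numbered 6 after quantile normalization, 6 without _x_at and _s_at and 4 to 8 with a clone left out. Without _x_at and _s_at the count is over fewer probe sets, since called ones of these kinds, among them those of MCM8 and RFC1, were removed. Those called higher numbered 0 to 1 with a clone left out. The median was -0.09 under both scalings, -0.13 by the median over probe sets and -0.20 to -0.04 with a clone left out.

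Other replication factors called lower numbered 2 to 7 with a clone left out, and 1 was called higher with arrays centred, after quantile normalization and without _x_at and _s_at, and 0 to 1 with a clone left out. Nucleotide supply genes called lower numbered 1 with arrays centred, 0 after quantile normalization, 0 with the pseudocount, 1 without _x_at and _s_at and 1 with any clone left out. E2F list genes called lower numbered 0 without moderation, 2 without _x_at and _s_at and 0 to 1 with a clone left out, and higher 1 without _x_at and _s_at and 0 to 1 with a clone left out. Stromal markers called lower numbered 0 in 8 of the 11 alternatives and 0 to 2 with a clone left out. Checkpoint genes called lower numbered 1 with arrays centred, after quantile normalization, with the pseudocount and with any clone left out.

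The sign turned 32 times, in 16 uncalled genes, and the cause was not tested. With arrays centred the values were 0.04 for MCM2, 0.07 for MCM7, 0.02 for ORC4, 0.02 for GINS3, 0.04 for CDC6 and 0.07 for LIG1, and after quantile normalization 0.05, 0.06, 0.09, 0.03, 0.08 and 0.05. Without _x_at and _s_at probe sets they were -0.14 for MCM5, 0.10 for CDC6, 1.55 for RFC1 and -0.01 for POLA2, and by the median over probe sets 0.07 for RPA1. With a clone left out the ranges were -0.19 to 0.04 for MCM2, -0.01 to 0.50 for MCM4, -0.08 to 0.00 for MCM7, -0.60 to 0.06 for MCM8, -0.24 to 0.06 for ORC4, -0.25 to 0.04 for CDC6, -0.65 to 0.18 for RFC1, -0.02 to 0.17 for RFC2, -0.15 to 0.17 for POLA2, -0.03 to 0.21 for PRIM2, -0.57 to 0.09 for RPA1, -0.10 to 0.21 for RPA3, -0.09 to 0.22 for FEN1 and -0.13 to 0.05 for LIG1. Over all genes, 923 to 1305 were called lower and 369 to 848 higher under these alternatives. Adjusted p under 0.05 was passed by 4 of all genes after quantile normalization and 2 with the pseudocount, and by 0 replication genes under any alternative, where their lowest adjusted p ran from 0.164 to 0.538.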

Other observations

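Beside the single probe set used for PRIM2, the primase subunit, 4 probe sets carry both PRIM2 and PRIM2BP and were left out of the gene values. Their log2 differences were -0.37, -0.02, -0.01 and 0.04, and none was called. Of the 12 megakaryocyte markers measured, 3 rose and 3 had a difference below 0. Those that rose are given here in the order CL4, CL9, CL46. SELP, an adhesion receptor of platelets, differed by 5.41, 3.06 and 2.81. GP1BA, a subunit of the platelet von Willebrand factor receptor, differed by 1.42, 3.48 and 2.23, and the integrin ITGB3 by 1.21, 1.45 and 1.02.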
